A study of Mus musculus with 4 samples.

Results

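A total of 43 genes that copy DNA and repair it were examined in ID8G cells and GO2 cells, out of 13215 genes tested and 22911 gene names on the array. The members were named by function, and their probes were found by RefSeq accession. They comprised 23 replication genes and 20 repair and checkpoint genes. ID8G is a GFP-expressing derivative of the mouse ovarian cancer (OC) line ID8, which arose from ovarian surface epithelium of C57BL/6 mice and was marked with GFP by retroviral transduction. GO2 cells were derived from ID8G cells by repeated intraperitoneal passage in female C57BL/6 J mice, with CD45-GFP+ cells sorted from the omentum and cultured each time. The lines were compared to find genes linked to the greater spread of GO2 cells in the abdomen. Both lines therefore carry GFP, both were kept in the same insulin-, transferrin- and selenite-supplemented medium, and neither received a treatment. GO2 is 1 selected line, and whether it is clonal was not given. RNA of each line was hybridized on 2 arrays, so that n = 2 for every value below.

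Before a cell divides, the origin recognition complex, CDC6 and CDT1 load the MCM2-7 helicase onto DNA, and CDC45 and the GINS complex then turn the loaded helicase on. DNA polymerases, PCNA, RPA, FEN1 and DNA ligase 1 copy and join the strands from dNTPs that ribonucleotide reductase supplies. Breaks are repaired by homologous recombination, which uses BRCA1, BRCA2 and PALB2, or by end joining, which starts with the Ku proteins, whereas the Fanconi anemia pathway deals with DNA crosslinks. The kinases ATM and ATR and their targets CHEK1 and CHEK2 hold the cell cycle while damage is present. Many of these genes are transcribed under the control of E2F factors, and loss of recombination repair is a well-known feature of human high-grade serous OC.

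All 4 arrays lay on 1 slide and in 1 scan, with 27502 to 28841 probes well above background per array. Levels correlated at 0.997 between the arrays of a line and at 0.967 to 0.968 between lines. The labels do not say that the arrays of a line came from separate cultures, and p values then measure only the spread between arrays, which may be technical. The epithelial keratins Krt8, Krt18 and Krt19 exceeded the background on each of the 4 arrays, whereas Epcam, Krt7 and Muc1 did so on none. Of 6 markers of ovarian surface epithelium, 4 (Emx2, Msln, Upk3b and Wt1) exceeded it on every array and Lhx9 on none. Of 8 leukocyte markers, 5 (Cd14, Cd3e, Cd68, Csf1r and Itgam) exceeded it on every array and 3, including the pan-leukocyte marker Ptprc, on none. Of 5 endothelial markers, Pecam1 exceeded it on every array and 4 on none.

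The 43 genes differed little between the lines, and the differences that passed the test were all decreases in GO2 cells. Levels are log2 intensities relative to the 75th percentile of their array, and a gene passed the test if its probe with the highest mean level had an adjusted p below 0.05 (limma, Benjamini-Hochberg adjustment over all 28368 probes tested). All 43 genes entered the test, each well above background on all 4 arrays. Of these, 11 were lower in GO2 cells, which is 25.6% beside 20.0% of all genes tested, and 0 were higher, beside 21.0% of all genes tested. At an unadjusted p below 0.05, 16 were lower and 2 were higher, beside 26.2% and 26.9% of all genes. No member changed by at least 2-fold, which 5.98% of all genes did upward and 3.94% downward.

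The 11 genes that fell were Mcm3, Mcm5, Gins1, Gins2, Pcna, Lig1, Blm, Fancd2, Fanci, Chek1 and Xrcc6, and their levels in GO2 cells were 73.8% to 85.5% of those in ID8G cells. Differences over all members ran from -0.44 for Chek1 to 0.18 for Rpa1 on the log2 scale, and no 95% interval reached beyond -0.61 or 0.45, so that no interval included a 2-fold change. Of the 43 differences, 30 were negative and 13 positive. Both GO2 arrays were below both ID8G arrays for 25 of the 43 members, beside 39.1% of all genes, and above both for 5 of the 43, beside 39.3% of all genes. The median difference was -0.14 for the replication genes and -0.06 for the repair and checkpoint genes, beside -0.0004 for all genes tested. The gap between these groups depended on the probe: with the mean over the tested probes of a gene both medians were -0.14. Without GO2 replicate 2 the repair and checkpoint median was -0.094. The median absolute difference between lines was 0.148 on the log2 scale, whereas the median absolute gap between arrays of a line was 0.045 in ID8G cells and 0.056 in GO2 cells. Fewer cells that express a gene and less RNA per cell cannot be told apart in these bulk samples.

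The calls depended on each of the arrays. With any 1 array left out, fewer members passed the test, and a smaller share of all genes did too. Such a fit leaves a single array in 1 of the lines. Relative to the median of all genes, the replication median then ran from -0.10 to -0.16, beside -0.14 with all arrays. The repair and checkpoint median ran from -0.04 to -0.11, beside -0.06. With no filter on dim probes 0 members passed by limma, beside 4.31% of all genes lower and 5.22% higher. At an unadjusted p below 0.05, 10 members were then lower and 0 higher, beside 13.8% of all genes in each direction.

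**Figure D1:**
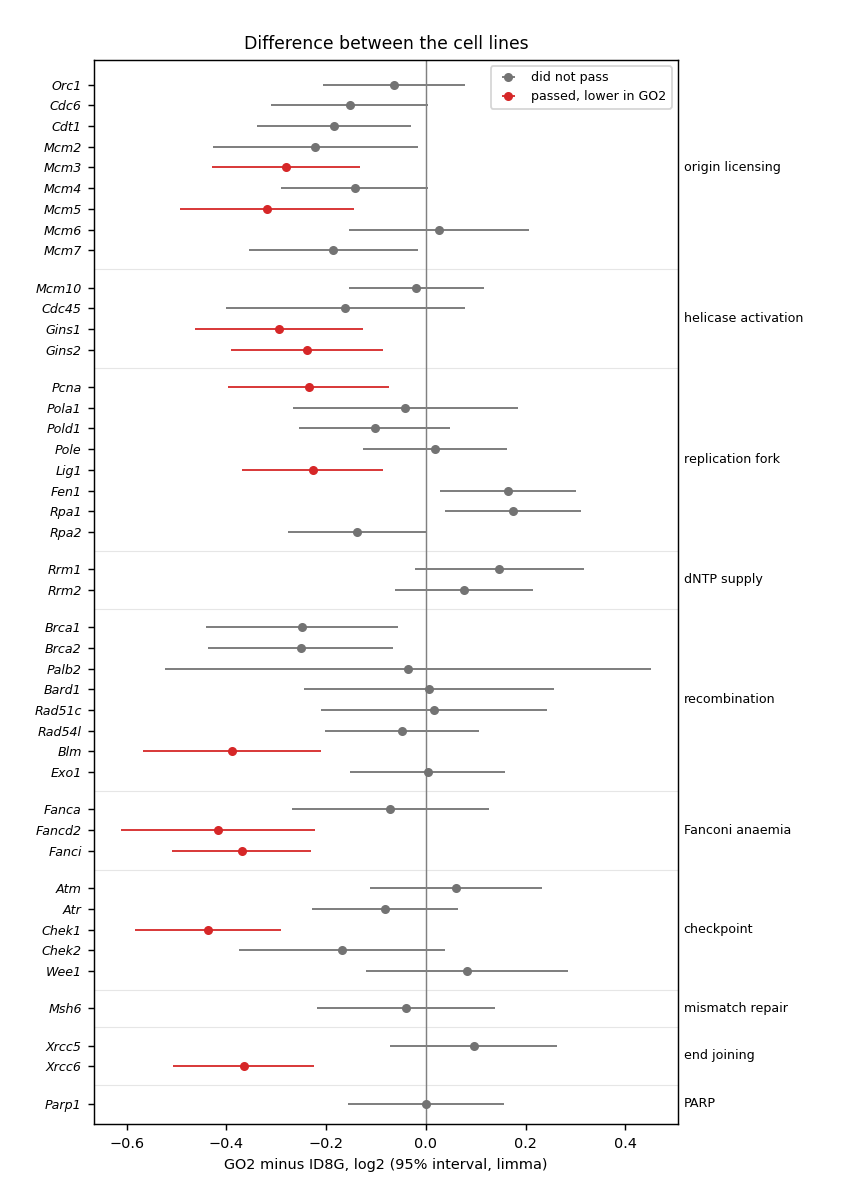
Difference between the cell lines (GO2 minus ID8G, log2 level, x axis) for each of the 43 genes, grouped by role, with the 95% interval from limma (n = 2 arrays per line). The 11 red genes passed the test and all lie to the left of 0, and every interval stays between -0.61 and 0.45.

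Origin licensing genes were lower in GO2 cells for 2 of 9 members (22.2%), near the 20.0% of all genes tested. Of the 9 differences 8 were negative, beside 6615 of 13215 over all genes. Mcm3, a subunit of the replicative helicase, measured 5.67 and 5.73 in ID8G cells and 5.42 on both GO2 arrays. The difference of -0.28 ± 0.05 (SE, limma, adjusted p = 0.024) recurred with its other probes, and 3 of its 3 probes passed the test. Mcm5, another subunit, measured 4.75 and 4.64 in ID8G cells and 4.38 and 4.37 in GO2 cells, a difference of -0.32 ± 0.06 (SE, limma, adjusted p = 0.026). In both genes the GO2 arrays were close together and below the ID8G arrays. The other helicase subunits did not pass the test: Mcm2 differed by -0.22, Mcm7 by -0.19, Mcm4 by -0.14 and Mcm6 by 0.03. The GO2 arrays were below the ID8G arrays for Mcm2, Mcm4 and Mcm7 and on either side of them for Mcm6. The dimmer probe of Mcm6 gave -0.11 and did not pass. The median over the 6 subunits was -0.20. The loading factors Cdt1, Cdc6 and Orc1 differed by -0.18, -0.15 and -0.06, and none of them passed. The dimmer probe of Orc1 gave 0.20 and did not pass.

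Of the 4 members that activate the helicase, the GINS subunits Gins1 and Gins2 were lower in GO2 cells. Gins1 measured 3.32 and 3.26 in ID8G cells and 3.04 and 2.95 in GO2 cells. Gins2 measured 4.03 and 3.97 in ID8G cells and 3.78 and 3.73 in GO2 cells. The differences were -0.29 and -0.24 (limma, adjusted p = 0.029 and 0.038), the GO2 arrays were below the ID8G arrays, and 2 of 2 probes passed for each gene. Cdc45, which travels with the helicase and GINS, differed by -0.16 and Mcm10, which helps to activate it, by -0.02, and neither passed. Of the other GINS subunits, which belong to the wider list described further on, Gins4 was lower by the same test (-0.27), whereas Gins3 differed by 0.06, with GO2 arrays above the ID8G arrays, and did not pass.

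Replication fork genes went in both directions, and 2 of 8 members passed the test. Pcna, the sliding clamp that holds polymerases on DNA, measured 6.44 and 6.51 in ID8G cells and 6.27 and 6.21 in GO2 cells. Lig1, the ligase that joins Okazaki fragments, measured 4.56 on each ID8G array, against 4.35 and 4.31 in GO2 cells. Each fell by 0.23 on the log2 scale (limma, adjusted p = 0.045 for Pcna and 0.035 for Lig1), and the second probe of Lig1 gave a larger decrease of -0.42. Pcna no longer passed with quantile normalization (limma, adjusted p = 0.054). The other direction was seen for Fen1, which removes the flaps of Okazaki fragments, and for Rpa1, the large subunit of the single-strand binding protein. Fen1 measured 5.60 and 5.58 in ID8G cells and 5.75 and 5.76 in GO2 cells. Rpa1 measured 5.30 and 5.29 in ID8G cells and 5.47 on both GO2 arrays. For both genes the GO2 arrays were above the ID8G arrays, but the differences of 0.16 and 0.18 did not pass the test (limma, adjusted p = 0.069 and 0.059). They passed with quantile normalization, with an intensity trend in the variance and in the fit to means over probes, although each of these genes has only 1 probe. With spike-in scaling the differences turned to -0.04 and -0.03. Rpa2, the middle subunit, differed by -0.14. The polymerase genes Pold1, Pola1 and Pole differed by -0.10, -0.04 and 0.02, and none of these 4 genes passed. The dimmer probe of Pola1 gave -0.23 and did not pass.

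Both ribonucleotide reductase genes, which supply dNTPs, had GO2 arrays above the ID8G arrays without passing the test. Rrm1, the large subunit, differed by 0.15 (95% interval -0.02 to 0.32) and Rrm2, the small subunit, by 0.08 (95% interval -0.06 to 0.22). With spike-in scaling the differences were -0.06 and -0.13.

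**Figure D2:**
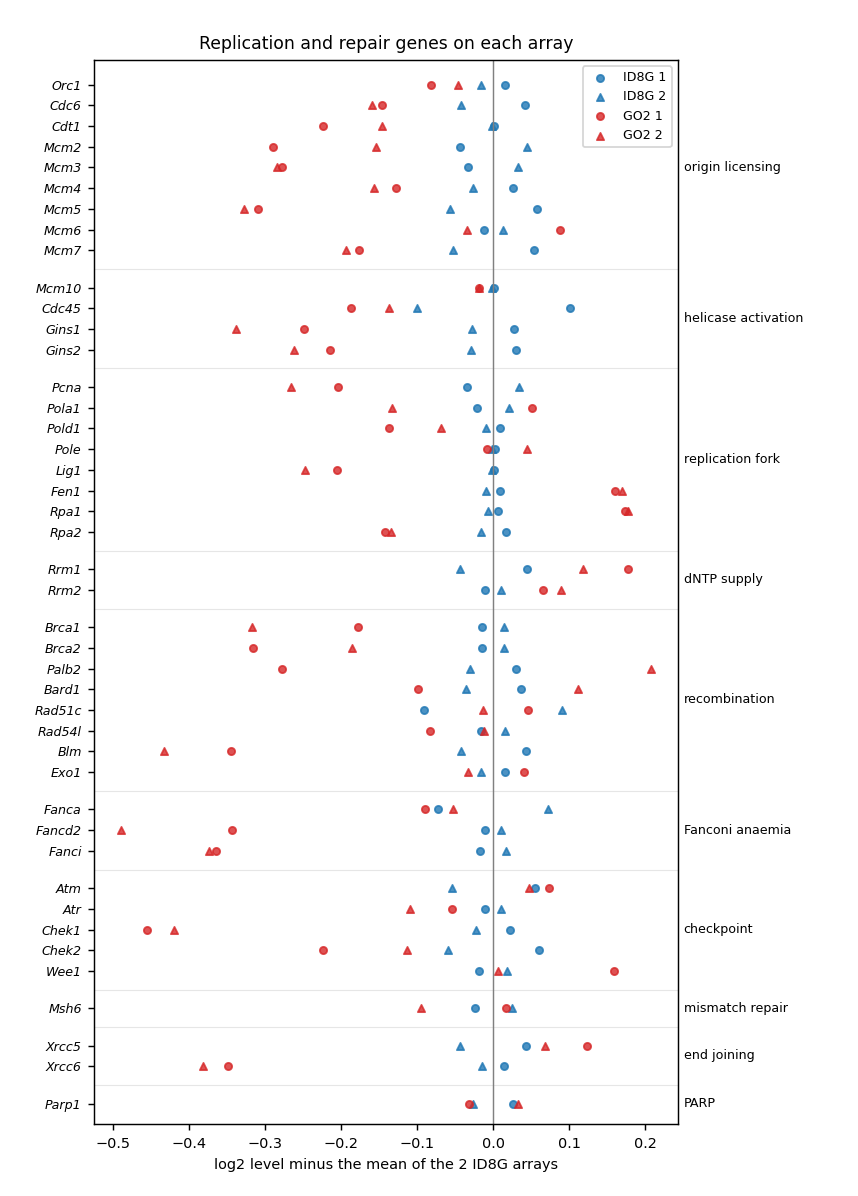
Level of each of the 43 genes on each of the 4 arrays, as log2 level minus the mean of the 2 ID8G arrays (x axis), grouped by role. The red GO2 symbols lie left of the blue ID8G symbols for 25 genes and right of them for 5, and the GO2 symbols of Palb2 lie on both sides.

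Of the 43 genes, 36 matched the RefSeq promoter table of build GRCm38.p6, with 42 promoters of 250 bases before to 50 bases after the start. The other members were Mcm4, Gins1, Gins2, Pole, Exo1, Fancd2 and Wee1. Exact matches of the E2F motifs TTTCCCGC, TTTGGCGC or TTTCGCGC were sought on both strands, and these motifs can overlap each other. At least 1 of them was found in 17 of the 42 promoters (40.5%), beside 1.84% of all 32851 promoters. The share was 43.5% for replication genes and 36.8% for repair and checkpoint genes. It was 40.0% in the promoters of members that passed the test (4 of 10) and 40.6% in those of members that did not (13 of 32). The CCAAT box CCAAT was in 61.9% of member promoters and 37.4% of all promoters. The CHR element, TTTGAA or TTCGAA, was in 14.3% and 19.2%. The 200 bases before the start are shown for 2 genes that fell and hold a motif (Mcm5, Xrcc6), for 2 that hold one and did not pass the test (Cdc6, Mcm6) and for the gene with the lowest difference, which has no match (Chek1). They lie at chr8:75109309-75109508 (plus strand), chr15:82016169-82016368 (plus), chr11:98907951-98908150 (plus), chr1:128359706-128359905 (minus) and chr9:36726659-36726858 (minus), respectively. Sequences are given in the direction of transcription, and capitals mark the E2F motif matches.
Mcm5: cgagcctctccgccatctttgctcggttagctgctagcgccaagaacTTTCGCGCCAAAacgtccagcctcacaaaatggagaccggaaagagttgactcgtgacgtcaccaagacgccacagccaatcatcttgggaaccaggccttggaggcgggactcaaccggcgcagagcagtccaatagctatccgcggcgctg
Xrcc6: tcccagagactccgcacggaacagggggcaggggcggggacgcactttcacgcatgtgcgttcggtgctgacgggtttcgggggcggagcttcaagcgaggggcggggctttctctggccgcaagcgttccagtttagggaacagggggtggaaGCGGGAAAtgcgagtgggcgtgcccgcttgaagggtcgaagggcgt
Cdc6: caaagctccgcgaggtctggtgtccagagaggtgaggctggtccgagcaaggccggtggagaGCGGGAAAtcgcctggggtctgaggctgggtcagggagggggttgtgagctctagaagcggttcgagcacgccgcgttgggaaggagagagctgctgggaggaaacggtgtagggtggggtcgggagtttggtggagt
Mcm6: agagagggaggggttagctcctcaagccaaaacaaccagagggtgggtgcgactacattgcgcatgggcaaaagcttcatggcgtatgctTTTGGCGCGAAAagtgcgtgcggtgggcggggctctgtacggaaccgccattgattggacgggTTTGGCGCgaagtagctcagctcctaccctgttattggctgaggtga
Chek1: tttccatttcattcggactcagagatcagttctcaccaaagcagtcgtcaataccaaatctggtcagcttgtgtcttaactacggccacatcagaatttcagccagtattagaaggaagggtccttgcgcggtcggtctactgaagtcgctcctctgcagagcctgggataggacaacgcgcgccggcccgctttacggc

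The capitals in Mcm5 are a pair of overlapping matches on opposite strands, and the Mcm6 window holds such a pair and a further match closer to the start. The differences of Mcm5 and Mcm6 were -0.32 and 0.03 (-0.11 with the dimmer probe of Mcm6), and a link between motif and level was not tested. A match is a description of the letters in the window, and binding of a factor was not measured.

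Recombination genes were lower for 1 of 8 members (12.5%), beside 20.0% of all genes tested. Blm, a helicase that unwinds recombination intermediates, measured 2.28 and 2.20 in ID8G cells and 1.90 and 1.81 in GO2 cells (difference -0.39 ± 0.07, SE, limma, adjusted p = 0.017). Its dimmer probe measured 1.26 and 1.21 in ID8G cells and 1.07 and 0.93 in GO2 cells, and the difference of -0.24 did not pass (limma, adjusted p = 0.065). Both probes of Blm thus had GO2 arrays below the ID8G arrays, and they differed in call. Brca1 and Brca2, which act together at double-strand breaks, each differed by -0.25 with the GO2 arrays below the ID8G arrays, and neither passed (limma, adjusted p = 0.059 and 0.053). Brca1 measured 1.63 and 1.66 in ID8G cells and 1.46 and 1.32 in GO2 cells. Brca2 measured 1.34 and 1.37 in ID8G cells and 1.04 and 1.17 in GO2 cells.

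Palb2, which links BRCA1 to BRCA2, had probes that disagreed. Its probe with the higher mean level measured -1.88 and -1.94 in ID8G cells and -2.19 and -1.70 in GO2 cells, so that the GO2 arrays lay on either side of the ID8G arrays and the difference was -0.04 ± 0.18 (SE). The other probe measured -3.09 and -3.02 in ID8G cells and -3.72 and -3.38 in GO2 cells, was not well above background on GO2 replicate 1, and gave -0.49 (limma, adjusted p = 0.0497). The remaining recombination genes did not pass: Rad54l differed by -0.05, Rad51c by 0.02, Bard1 by 0.01 and Exo1 by 0.0041. The interval was widest for Bard1 among these 4, from -0.25 to 0.26, and the dimmer probe of Bard1 gave -0.25 without passing. The mean level of Rad51c, -3.29 in ID8G cells and -3.27 in GO2 cells, was near the lowest signal well above background (-3.85 to -3.53 over the arrays).

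In the Fanconi anemia pathway, the 2 genes of the ID complex were lower in GO2 cells. Fancd2 measured -1.01 ± 0.01 (SD, n = 2) in ID8G cells and -1.36 and -1.50 in GO2 cells. Fanci, its partner in the complex that is ubiquitinated at crosslinks, measured 1.70 and 1.74 in ID8G cells and 1.36 and 1.35 in GO2 cells. The GO2 levels were 74.9% and 77.4% of the ID8G levels (limma, adjusted p = 0.018 and 0.010), and the arrays of the lines did not overlap. Fanca, a subunit of the core complex, differed by -0.07 and by -0.31 with its other tested probe, and neither probe passed (limma, adjusted p = 0.48 and 0.060).

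Of the 5 checkpoint genes, Chek1 alone passed the test, and it had the lowest difference of all members. Chek1, the kinase that acts below ATR, measured 0.39 and 0.34 in ID8G cells and -0.09 and -0.05 in GO2 cells. The difference was -0.44 ± 0.05 (SE, limma, adjusted p = 0.0077), and its second probe gave the same value with 2 of 2 probes passing. Chek2, the kinase below ATM, differed by -0.17 and Atr by -0.08, with GO2 arrays below the ID8G arrays for both. Atm differed by 0.06 and Wee1, which restrains CDK1, by 0.08. None of these 4 passed.

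Of the Ku genes of end joining, only Xrcc6 passed the test. Xrcc6, which encodes Ku70, measured 5.21 and 5.18 in ID8G cells and 4.85 and 4.81 in GO2 cells, a difference of -0.37 ± 0.05 (SE, limma, adjusted p = 0.011). Xrcc5, which encodes its partner Ku80, measured 1.42 and 1.33 in ID8G cells and 1.50 and 1.45 in GO2 cells. The GO2 arrays of Xrcc5 were above the ID8G arrays, and the difference of 0.10 (95% interval -0.07 to 0.26) did not pass and was -0.11 with spike-in scaling. Msh6, a sensor of mismatches, differed by -0.04 (95% interval -0.22 to 0.14). Parp1, which marks DNA breaks with poly(ADP-ribose), differed by 0.0002 (95% interval -0.16 to 0.16).

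A wider list of 126 other replication and repair genes, chosen by function, included 124 tested genes. Of these, 33 were lower in GO2 cells (26.6%) and 10 were higher (8.06%), beside the 20.0% and 21.0% of all genes. The median difference was -0.07. In its replication part, 15 of 49 genes were lower and 5 higher, and in its repair and checkpoint part 18 of 75 were lower and 5 higher. Orc6, the smallest subunit of the origin recognition complex, measured 5.06 and 4.97 in ID8G cells and 6.20 and 6.10 in GO2 cells. Its difference of 1.13 ± 0.07 (SE, limma, adjusted p = 0.0013) was the only one in the list of at least 2-fold.

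Among the other genes around the origin, Gmnn, the inhibitor of CDT1, fell by 0.43 and Topbp1, a scaffold for origin firing, fell by 0.41. At the fork, the small subunits Pold4 of polymerase delta and Rpa3 of RPA fell by 0.54 and 0.52, while Rnaseh2a, a subunit of the enzyme that removes RNA from DNA, rose by 0.49. In dNTP supply, Rrm2b, the ribonucleotide reductase subunit used in resting and damaged cells, fell by 0.54. Samhd1, which degrades dNTPs, rose by 0.77 with its brightest probe, and 1 of its 3 probes passed.

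Of 20 wider recombination genes, 5 were lower, led by Rad51b at -0.47, Rad52 at -0.39 and Rad51d at -0.37, and 1 was higher, Nbn, a subunit of the MRN complex that senses breaks, at 0.31. Of the wider Fanconi anemia genes, 4 of 9 were lower, led by Ube2t, the ubiquitin-conjugating enzyme for the ID complex, at -0.41. Of the wider end joining genes, 3 of 5 were lower, namely Nhej1 at -0.44, Prkdc, the kinase that Ku recruits, at -0.39 and Xrcc4 at -0.36. Of 11 wider checkpoint genes, 0 were lower and 1 was higher, Atrip, the partner of ATR, at 0.35. In excision repair 4 of 24 genes were lower, including Mbd4 at -0.45, and 3 were higher, including Neil2 at 0.42, both DNA glycosylases. Beside these counts, 20.0% of all genes tested were lower and 21.0% higher.

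**Figure D3:**
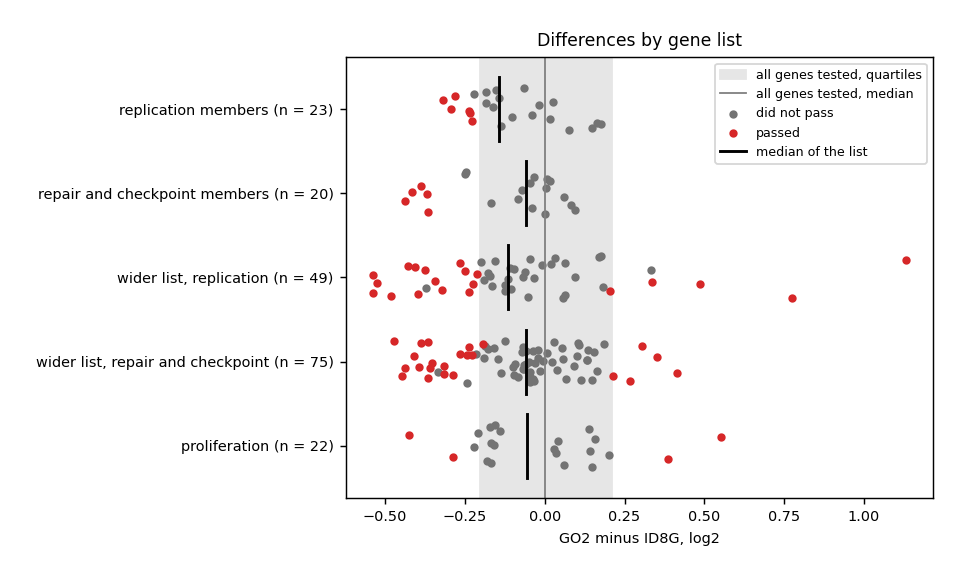
Difference between the cell lines (GO2 minus ID8G, log2 level, x axis) for each gene of 5 lists (rows), with the median of each list as a black bar. The gray band spans the quartiles of all genes tested, -0.20 to 0.21, and the replication members have the lowest median at -0.14.

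Of 22 genes of mitosis and the cell cycle, 18 did not pass the test. In GO2 cells 2 were higher: Cdc20, the activator of the anaphase-promoting complex, at 0.55, and the transcription factor E2f1 at 0.39. Another 2 were lower: the mitotic kinase Cdk1 at -0.42 and the transcription factor Mybl2 at -0.29. That is 9.09% in each direction, beside 21.0% of all genes tested higher and 20.0% lower. The list had 11 positive and 11 negative differences and a median of -0.06. Marker genes of cell types, including the epithelial origin of the lines, also differed between the lines. Of the epithelial markers tested, 3 of 4 were lower in GO2 cells, and the log2 summed level of the list was 9.09 to 9.13 in ID8G cells and 8.15 to 8.16 in GO2 cells. Of the fibroblast markers, 4 of 5 were higher and 1 lower in GO2 cells, led by Col1a2 and Col1a1, with summed levels of 6.08 to 6.13 and 6.99 to 7.03. Of those 4, Pdgfrb was well above background in GO2 cells only and was at least 2.42-fold higher there. Lum and Thy1 were not well above background on any array. Of the leukocyte markers tested, 1 of 5 was lower and 0 were higher, with summed levels of 4.61 to 4.77 and 4.59 to 4.60. Of 4 ovarian surface markers tested, Msln fell by 0.82 and Upk3b rose by 1.08, while Wt1 differed by -0.10 without passing. Of 2 adipocyte markers tested, 1 was lower, Fabp4, which was not well above background in GO2 cells and was at least 6.28-fold higher in ID8G cells. The part of these shifts in the differences of the replication and repair genes was not tested.

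The size of the decreases depended on the scaling, since the 7 spike-in transcripts read 0.15 to 0.28 higher on the log2 scale in GO2 cells than in ID8G cells after 75th percentile scaling. Scaled to the spike-ins, the median of all genes was -0.21, all 43 members had negative differences, 21 of them passed as lower, beside 31.9% of all genes (10.4% were higher), and 30 of the 43 lay below that median. The replication median then lay 0.14 below the median of all genes (-0.35 against -0.21), and the repair and checkpoint median was -0.27. Spike-in scaling and median centring subtract 1 value per array. The gap between the members and all genes, and the count of members below that median, therefore could not change with them. With quantile normalization the replication median was 0.14 below that of all genes, and with normexp background correction 0.12 below. It was also lower without each array, and ran from -0.11 to -0.17 when 1 array was left out.

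**Figure D4:**
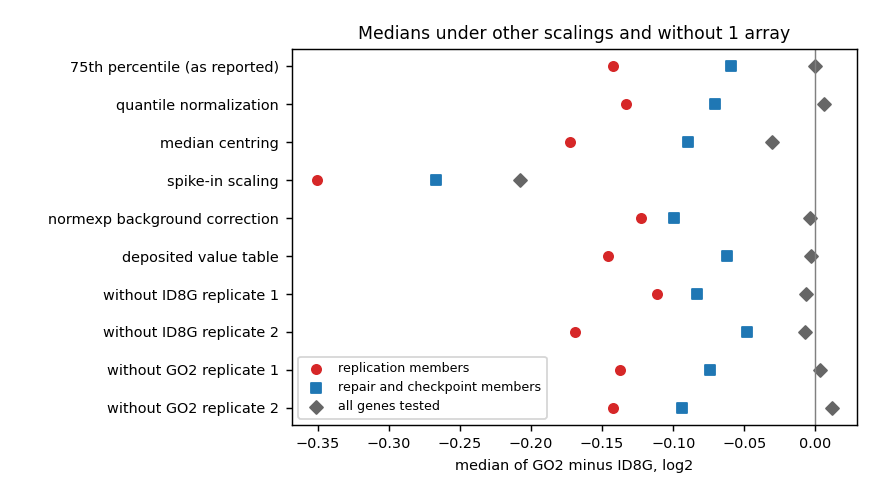
Median difference between the cell lines (GO2 minus ID8G, log2, x axis) of the replication members, the repair and checkpoint members and all genes tested, under 5 ways of scaling or background correction, with the deposited values and without each array (rows). The red and blue symbols lie left of the gray symbol in every row. With spike-in scaling and with median centring all 3 move left together, so that their order could not change.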

How the data were processed

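RNA of ID8G and GO2 cells was labeled with Cy3 and hybridized to Agilent mouse arrays, 2 arrays per line. The authors deposited the spot intensity as processed by Feature Extraction 11.5.1.1, which is on a linear scale and not normalized between arrays, and marks for outlier, saturated and background spots. The authors also deposited a value table on the log2 scale, whose values lay within 0.0054 of the scaled log2 levels centered per probe for 99% of values. It served as 1 alternative. The methods name GeneSpring, and its settings are not given in the sources used here. Of the per-sample columns, 0 were left unused.

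From each log2 intensity the array's 75th percentile over non-control probes was subtracted. Outlier spots were left out, and repeated spots were averaged. A probe was tested if it exceeded background on both arrays of either line, by a limma 3.58.1 fit (R 4.3.3) whose sole term was the line. The number of arrays limits the precision, and an exact permutation test of 2 against 2 arrays cannot give a p below 0.333. The fit was tested on simulated data. Of 56605 probes, 32994 (58.3%) had a RefSeq gene name by accession. Promoter sequences are from RefSeq (GRCm38.p6). A gene was counted by its tested probe with the highest mean level. Alternatives were other scalings, background corrections, filters, tests and probe rules, a replicate block and leaving out each array.

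The members and gene lists were chosen with earlier results of these data known. Values per array were to be given for members that passed with a log2 difference of at least 0.5, which no member reached, and for members with 1 probe that passed and 1 that did not (Blm, Palb2). Those of other members were added after their values were seen. From the other lists at most the 3 highest and the 3 lowest genes that passed were named per group. Some genes of the lists are not reported here. Gins3, Gins4 and the marker genes were chosen after their values were seen. Fold bounds (at least N-fold) set a line below background to the lowest signal well above background on each of its arrays.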

Additional observations from a re-analysis of the deposited data

How the results depend on the processing

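Of 731 comparisons of single members with an alternative, 576 kept sign and side of the threshold, 68 lost and 39 gained the call. A further 48 turned in sign without a call, 13 of them with spike-in scaling and 0 among the 11 members that passed. Settings that changed only the filter, the variance, the test or the block left the differences as they were, so that no sign could turn there. Spike-in scaling moved every difference down, so that a negative difference could not turn there either. With 1 array left out, 0 to 1 members were lower and 0 higher, the replication median ran from -0.17 to -0.11 and the repair and checkpoint median from -0.094 to -0.0482, the wider list had 3 to 10 lower and 2 to 4 higher genes, and the proliferation list 0 to 1 lower and 0 to 1 higher. With no filter on dim probes, 0 members, 0 wider and 0 proliferation genes were lower, and 2 wider and 0 proliferation genes were higher (lowest adjusted p of a member 0.073). By the methods' unequal-variance test each of these counts was 0 after adjustment (lowest adjusted p 0.12), beside 0.0227% of all genes lower. At an unadjusted p below 0.05, 7 members were lower and 3 higher by that test, beside 15.1% and 16.1% of all genes. Leaving out 1 array left 9.34% to 11.7% of all genes lower, and no filter left 4.31%. Spike-in scaling, with 31.9% of all genes lower, gave 21 lower members, 50 lower and 2 higher wider genes, 11 lower and 1 higher proliferation genes, and medians of -0.35 (replication) and -0.27 (repair and checkpoint). Median centring gave medians of -0.173 and -0.0893 and 4 lower proliferation genes, beside 22.1% of all genes lower, and normexp a repair and checkpoint median of -0.10. An intensity trend in the variance gave 19 lower and 3 higher members and 11 lower and 6 higher proliferation genes. In that setting 26.1% of all genes were lower and 27.2% higher. Quantile normalization gave 2 higher members, beside 21.9% of all genes higher. The mean over probes gave 2 higher members (Fen1 and Rpa1, each with 1 probe), 7 lower proliferation genes and a repair and checkpoint median of -0.14. In that setting 23.7% of all genes were lower and 23.7% higher. The cause of these shifts was not tested.

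Replicate numbers did not pair the arrays (correlation of the deviations of same-numbered arrays 0.027). With the replicate block, 7 members were lower, with Mcm3, Gins2, Pcna and Lig1 no longer passing, and 20 wider genes were lower, beside 16.2% of all genes. A slide block could not be fitted, since all arrays lay on 1 slide. Leaving out any 1 array removed at least 10 of the 11 calls.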
